A study of Mus musculus with 14 samples.

Results

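The 7 cyclin-dependent kinase (CDK) inhibitor genes of the mouse, Cdkn2a, Cdkn2b, Cdkn2c and Cdkn2d of the INK4 family and Cdkn1a, Cdkn1b and Cdkn1c of the CIP/KIP family, were followed through a model of T-cell acute lymphoblastic leukaemia (T-ALL). Members were taken by gene name from a table of read counts, where all 7 were found among 46946 genes. RNA was sequenced from 14 thymus samples of C57BL/6;CBA mice in 5 groups, to compare leukaemias in which the oncogene Lmo2 was switched on in different cells. In the Rosa26-Lmo2+Sca1-Cre line (n = 3, aged 9 months), Cre recombinase under the Sca1 promoter opens an Lmo2 allele at the Rosa26 locus in blood stem and progenitor cells, and Lmo2 stays on in their progeny. In the Sca1-Lmo2 line (n = 4, aged 7 to 8 months), the Sca1 promoter itself drives Lmo2, which was meant to restrict it to stem and progenitor cells. The Rosa26-Lmo2 allele was opened from the pro-B cell stage in the Rosa26-Lmo2+Mb1-Cre line (n = 2, aged 20 months) and in germinal centre B cells in 1 Rosa26-Lmo2+Aid-Cre mouse (22 months), a line whose mice the study immunised with sheep red blood cells. The last group was healthy thymus of wild-type (WT) mice (n = 4, 4 months). Every leukaemia group was older than the WT mice, and the leukaemias begun in B-lineage cells came from the oldest mice, so age and genotype cannot be told apart in any comparison with WT or between the models.

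CDK inhibitors hold cells out of the division cycle. INK4 proteins bind CDK4 and CDK6, keep cyclin D off these kinases and thereby leave the retinoblastoma protein (RB) active, whereas CIP/KIP proteins bind assembled cyclin-kinase complexes, above all those of CDK2. Cdkn2a encodes INK4a (p16) and, from another first exon and in another reading frame, ARF (p19), which restrains MDM2 and so stabilises p53. The locus of Cdkn2a and its neighbour Cdkn2b is a frequent site of deletion in human T-ALL, and Cdkn2c, Cdkn2d and Cdkn1b are known for restraining the division of thymocytes at set stages.

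The table appeared to count reads over the whole span of a gene on mm10/GRCm38, without regard to strand, though the counting tool was not stated. Cdkn2a lay on chromosome 4 from 89274471 to 89294653 (minus strand, ENSMUSG00000044303) and Cdkn2b next to it from 89306289 to 89311032 (minus strand, ENSMUSG00000073802). Cdkn2c lay further along chromosome 4, from 109660876 to 109667189 (minus strand, ENSMUSG00000028551), and Cdkn2d on chromosome 9 from 21288463 to 21291209 (minus strand, ENSMUSG00000096472). Of the CIP/KIP genes, Cdkn1a lay on chromosome 17 from 29090979 to 29100722 (plus strand, ENSMUSG00000023067), Cdkn1b on chromosome 6 from 134920401 to 134925513 (plus strand, ENSMUSG00000003031) and Cdkn1c on chromosome 7 from 143458350 to 143461050 (minus strand, ENSMUSG00000037664). No listed gene overlapped the span of a member. Both transcripts of Cdkn2a fell into 1 count, so that INK4a and ARF could not be separated.

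The DNA before the start sites of 6 members was read from RefSeq (GRCm38.p6), as the 200 bases that end 51 bases before each annotated start, and no such sequence was used for Cdkn1c. The windows of the members whose counts differed most between groups are printed 5′ to 3′ on the strand of the gene, because the 2 start sites of Cdkn2a, 12427 bases apart, have unlike sequences. They are chr4:89294670-89294869 (minus strand) for ARF, chr4:89282243-89282442 (minus strand) for INK4a, chr4:89311083-89311282 (minus strand) for Cdkn2b and chr6:134920151-134920350 (plus strand) for Cdkn1b. Capitals mark a match, on either strand, of TTTCCCGC (an E2F-type motif) or GGGCGG (an SP1-type motif).
Cdkn2a, ARF start: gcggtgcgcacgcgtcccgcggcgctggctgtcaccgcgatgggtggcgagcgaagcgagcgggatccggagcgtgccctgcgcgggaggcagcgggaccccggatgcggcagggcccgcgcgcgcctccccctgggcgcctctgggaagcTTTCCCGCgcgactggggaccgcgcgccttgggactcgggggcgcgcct
Cdkn2a, INK4a start: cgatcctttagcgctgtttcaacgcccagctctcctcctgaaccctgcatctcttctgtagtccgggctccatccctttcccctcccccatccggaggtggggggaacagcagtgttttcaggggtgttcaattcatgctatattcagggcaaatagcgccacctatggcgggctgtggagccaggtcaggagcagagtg
Cdkn2b: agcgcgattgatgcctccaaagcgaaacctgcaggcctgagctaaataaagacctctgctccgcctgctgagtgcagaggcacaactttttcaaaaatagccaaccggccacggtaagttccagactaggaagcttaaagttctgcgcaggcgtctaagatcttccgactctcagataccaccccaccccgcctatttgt
Cdkn1b: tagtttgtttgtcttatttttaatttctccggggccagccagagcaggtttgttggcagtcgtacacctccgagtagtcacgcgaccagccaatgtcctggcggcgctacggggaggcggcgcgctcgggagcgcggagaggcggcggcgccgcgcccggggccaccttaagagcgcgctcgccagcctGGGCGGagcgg
The ARF window held 34 CG pairs and was 79.0% G and C, and 99.2% of the 32851 windows of all genes held fewer CG pairs, whose median was 4. The INK4a window held 7 CG pairs (57.5% G and C), the Cdkn2b window 10 (52.0%) and the Cdkn1b window 25 (66.5%). The ARF window had a TTTCCCGC match, found in 0.691% of all windows, and the Cdkn1b window had an SP1-type match, found in 24.6%. The same search, on both strands, covered GATA, which 48.1% of windows held, the E-box CAGGTG (14.4% of windows) and another E-box, CAGCTG (10.3%). The INK4a window held no match of any of these motifs, and the Cdkn2b window held only the first of the added ones, GATA. A match is a description of these letters and not a bound site.

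Levels are given as CPM, read counts relative to library size after TMM scaling, as mean ± SD between libraries, from 42985130 to 47667663 counts per library. A gene was tested if 3 or more libraries had 1 CPM or more of it, which held for 17087 genes and all 7 members, and a call is an adjusted p under 0.05 in the quasi-likelihood test of edgeR over all of them. Lmo2 ranged over 5.83 to 10.1 CPM in Rosa26-Lmo2+Sca1-Cre, 10.2 to 17.6 CPM in Sca1-Lmo2 and 3.96 and 6.99 CPM in Rosa26-Lmo2+Mb1-Cre, and was at 22.2 CPM in the 1 Rosa26-Lmo2+Aid-Cre leukaemia, against 1.63 to 4.43 CPM in WT, so that 1 Rosa26-Lmo2+Mb1-Cre library lay within the WT range. The 14 thymocyte markers summed to 3089 to 7209 CPM in the 10 leukaemia libraries and to 10220 to 11540 CPM in WT, with none at 0 in any library. Sca1-Lmo2 replicates 1 and 3 shared their leading T cell receptor segments, with 82.3% and 86.3% of Trbv counts on Trbv5 and 86.0% and 88.8% of Trbj counts on Trbj2-1, while the leading Trbv segment of WT held 12.5 to 13.5%. These replicates were also the most alike pair of leukaemia libraries across genes (r = 0.969), and results that rest on them are given with both summed to 1 sample where that changes a call. In bulk tissue, fewer cells of a type and less RNA per cell cannot be told apart.

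Cdkn2a was the member that differed most between groups. It was at 299 and 384 CPM in Rosa26-Lmo2+Mb1-Cre leukaemias and at 112 CPM in the Rosa26-Lmo2+Aid-Cre leukaemia, against 0.290, 0.278, 0.189 and 0.265 CPM in WT thymus. In Sca1-Lmo2 leukaemias it was at 2.47, 5.19, 3.31 and 8.28 CPM, and in Rosa26-Lmo2+Sca1-Cre leukaemias at 5.87, 0.129 and 0.759 CPM. The 3 leukaemias begun in B-lineage cells, which were also the oldest mice, thus lay far above every other library, the 4 Sca1-Lmo2 libraries lay between them and WT, and the Rosa26-Lmo2+Sca1-Cre libraries spread on both sides of WT. As counts these were 12910 and 12822 reads in Rosa26-Lmo2+Mb1-Cre, 5378 for Rosa26-Lmo2+Aid-Cre, 114 to 399 in Sca1-Lmo2, and 208, 4 and 38 in Rosa26-Lmo2+Sca1-Cre, against 10 to 14 in WT.

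Cdkn2a rose in Rosa26-Lmo2+Mb1-Cre against WT by 10.37 ± 1.08 on the log2 scale (SE, adjusted p = 0.000414). It rose in Sca1-Lmo2 against WT by 4.22 ± 0.85, or 18.7-fold (adjusted p = 0.00612). In Rosa26-Lmo2+Sca1-Cre it was called higher than in WT, by 3.13 ± 0.87 or 8.73-fold (adjusted p = 0.0229), but the libraries of both groups overlapped. That call rested on replicate 1, without which the difference was 0.88 (adjusted p = 0.321), and it also ended without WT replicate 3 (adjusted p = 0.0648) or WT replicate 4 (adjusted p = 0.062), when limma-voom replaced edgeR (1.78, adjusted p = 0.264) and when the other groups left the fit (adjusted p = 0.0565). The median read density over 15 long genes, chosen as genes that thymus hardly uses, was taken as a background on gene spans and came, over the span of Cdkn2a in Rosa26-Lmo2+Sca1-Cre, to 2.25 of 4 counts in replicate 2 and 16.3 of 38 (42.9%) in replicate 3, against 1.28 to 2.45 of the 10 to 14 counts in WT. The median was 0.807 reads per kb in that replicate 3, against 0.0426 to 0.178 in the other libraries. The list was not silent as a whole and differed between groups. Its sum was 307.8 to 875.4 CPM in Rosa26-Lmo2+Sca1-Cre, 168.8 to 208.9 CPM in Sca1-Lmo2 and 441.4 and 451.1 CPM in Rosa26-Lmo2+Mb1-Cre, against 230.7 to 272 CPM in WT, with no gene at 0. Against WT, 10 of 15 rose in Rosa26-Lmo2+Sca1-Cre (median 1.98), 1 rose and 1 fell in Sca1-Lmo2 (median -0.83) and 4 rose in Rosa26-Lmo2+Mb1-Cre (median 0.95). Among all genes tested, 16.5%, 12.1% and 19.7% rose in that order, and 10.2% fell in Sca1-Lmo2. The part of such reads in the results was not tested. Beside these levels of Cdkn2a, 7 of 10 B cell markers fell in Rosa26-Lmo2+Mb1-Cre against WT and none rose, with a median log2 fold change of -3.42. Of the same markers 2 fell in Rosa26-Lmo2+Sca1-Cre (median -1.53) and 3 in Sca1-Lmo2 (median -1.14), and none rose in either model. The share of all genes that fell was 15.4% in Rosa26-Lmo2+Mb1-Cre, 10.4% in Rosa26-Lmo2+Sca1-Cre and 10.2% in Sca1-Lmo2.

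**Figure D1:**
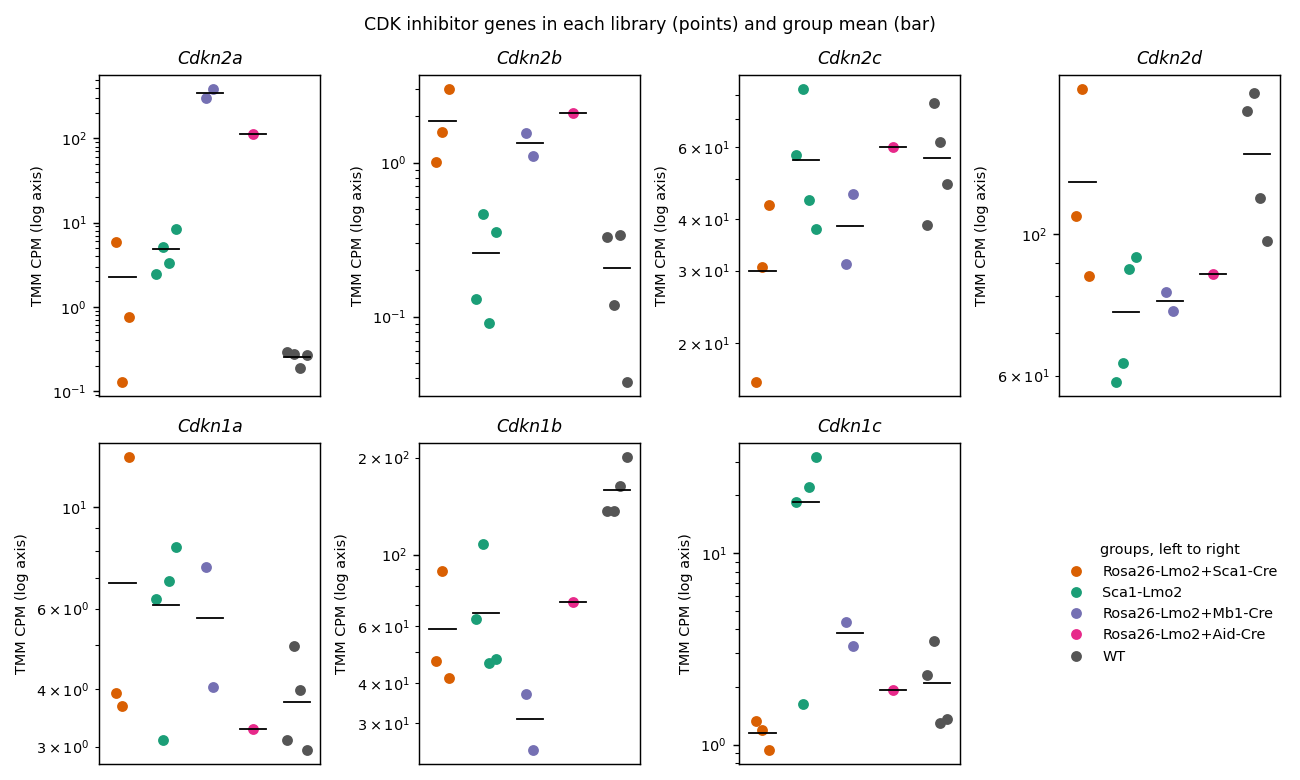
TMM-scaled CPM of each of the 7 CDK inhibitor genes on a log axis, 1 panel a gene, with a point for each library and a bar at the mean of each group. Cdkn2a reaches 299 and 384 CPM in Rosa26-Lmo2+Mb1-Cre and 112 CPM in Rosa26-Lmo2+Aid-Cre while no WT library is above 0.290 CPM, and Cdkn1b is highest in the 4 WT libraries.

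Cdkn2b encodes p15, the INK4 protein best known as a target of TGF-beta signalling. It was at 1.02, 1.58 and 3.0 CPM in Rosa26-Lmo2+Sca1-Cre, against 0.331, 0.119, 0.341 and 0.0379 CPM in WT, and at 1.55 and 1.11 CPM in Rosa26-Lmo2+Mb1-Cre. In Sca1-Lmo2 it was at 0.130, 0.466, 0.0906 and 0.353 CPM. The libraries of both Rosa26-Lmo2 groups and the Rosa26-Lmo2+Aid-Cre library, at 2.11 CPM, were above every WT library, and the Sca1-Lmo2 libraries lay among those of WT. Cdkn2b rose in Rosa26-Lmo2+Sca1-Cre against WT by 3.16 ± 0.77 (SE), or 8.92-fold (adjusted p = 0.0143), and in Rosa26-Lmo2+Mb1-Cre against WT by 2.67 ± 0.81, or 6.36-fold (adjusted p = 0.0246). In Sca1-Lmo2 the difference from WT was 0.33 with a 95% interval of -1.06 to 1.72 (adjusted p = 0.773). These folds rest on few reads, 36 to 150 per Rosa26-Lmo2+Sca1-Cre library and 67 and 37 in Rosa26-Lmo2+Mb1-Cre, against 2 to 18 in WT. The Rosa26-Lmo2+Sca1-Cre call held with any replicate left out (adjusted p from 0.02 to 0.0405) but not in every other alternative. The Rosa26-Lmo2+Mb1-Cre call ended when replicate 1 (adjusted p = 0.0994), replicate 2 (adjusted p = 0.0823), WT replicate 2 (adjusted p = 0.0597) or WT replicate 4 (adjusted p = 0.0525) was left out, and with library totals in place of TMM factors (adjusted p = 0.0691).

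By group, some markers of connective tissue moved with Cdkn2b. Of the 9 stromal and endothelial markers tested, 6 rose and 1 fell in Rosa26-Lmo2+Sca1-Cre, 5 rose and 1 fell in Rosa26-Lmo2+Mb1-Cre, and 2 rose in Sca1-Lmo2, each against WT. Among all genes tested, 16.5%, 19.7% and 12.1% rose in that order, and 10.4%, 15.4% and 10.2% fell. With library totals Sparc (adjusted p = 0.0675) and Tek (adjusted p = 0.124) lost their calls in Rosa26-Lmo2+Mb1-Cre, and Col1a1 (adjusted p = 0.078) in Sca1-Lmo2. Col3a1, a fibroblast collagen, was at 7.91 to 22.8 CPM in Rosa26-Lmo2+Sca1-Cre, 5.4 and 6.21 CPM in Rosa26-Lmo2+Mb1-Cre, 16.2 CPM in the single Rosa26-Lmo2+Aid-Cre library and 0.521 to 2.43 CPM in Sca1-Lmo2, against 0.644 to 1.80 CPM in WT. Over the 14 libraries Col3a1 had the pattern most like that of Cdkn2b by Pearson correlation (r = 0.923), where libraries of a group share their genotype and age. The sum of all 13 markers, mostly the endothelial Pecam1, was 131.6 to 187.5 CPM in Rosa26-Lmo2+Sca1-Cre, 127.8 to 200.8 CPM in Sca1-Lmo2 and 94.3 and 107.0 CPM in Rosa26-Lmo2+Mb1-Cre, against 120.1 to 128.9 CPM in WT. Col1a2, another collagen, rose in Sca1-Lmo2 by 4.29 (adjusted p = 0.0023), where Cdkn2b was low. Calls of myeloid markers went with Cdkn2b by group as well, with 5 of 12 higher in Rosa26-Lmo2+Sca1-Cre, 7 of 12 in Rosa26-Lmo2+Mb1-Cre and 0 in Sca1-Lmo2 by edgeR (1 at an unadjusted p under 0.05, 0 by DESeq2 and by limma-voom). With library totals Csf1r (adjusted p = 0.248) and Lyz2 (adjusted p = 0.0651) lost their calls in Rosa26-Lmo2+Sca1-Cre. Csf1r (adjusted p = 0.391), C1qc (adjusted p = 0.0827) and Mrc1 (adjusted p = 0.162) lost theirs in Rosa26-Lmo2+Mb1-Cre. The sum of the myeloid markers was 597.8 to 1505 CPM in Rosa26-Lmo2+Sca1-Cre, 332.3 and 1450.0 CPM in Rosa26-Lmo2+Mb1-Cre and 117.1 to 224.2 CPM in Sca1-Lmo2, against 147.5 to 318.7 CPM in WT, with none of the 12 at 0 in any group. Within Rosa26-Lmo2+Mb1-Cre the lower sum was that of replicate 1, which had more Cdkn2b. S100a8 (0.463 to 2.58 CPM) and S100a9 (0.417 to 1.23 CPM) were not high in Rosa26-Lmo2+Mb1-Cre, against 1.16 to 7.47 and 2.29 to 11.2 CPM in WT. The part of such cells in the Cdkn2b levels was not tested.

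**Figure D2:**
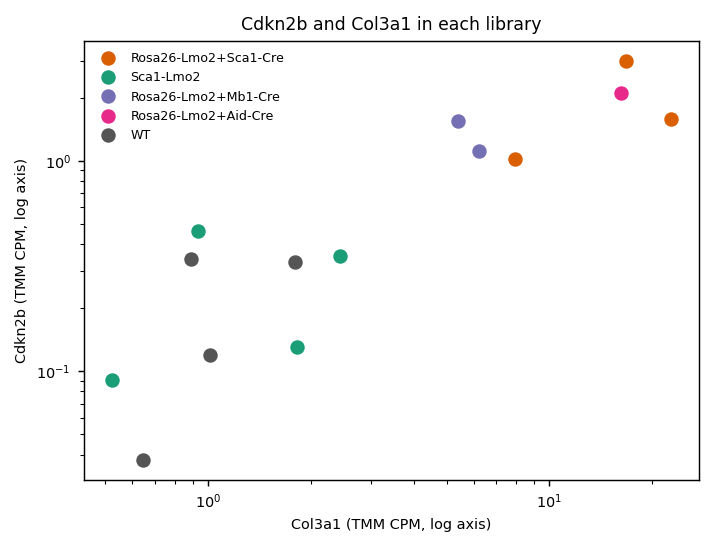
CPM of Cdkn2b against CPM of Col3a1 in the 14 libraries, both on log axes, coloured by group. The libraries with 1.02 CPM or more of Cdkn2b are those with 5.4 CPM or more of Col3a1, and the Sca1-Lmo2 and WT libraries lie together at the lower left.

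Cdkn2c, which encodes p18, and Cdkn2d, which encodes p19 of the INK4 family and not ARF, were the INK4 genes that healthy thymus carried at a high level. Cdkn2c was at 16.1, 30.6 and 43.2 CPM in Rosa26-Lmo2+Sca1-Cre, at 57.2, 82.9, 44.4 and 37.9 CPM in Sca1-Lmo2, at 31.2 and 46.0 CPM in Rosa26-Lmo2+Mb1-Cre and at 60 CPM in the 1 Rosa26-Lmo2+Aid-Cre leukaemia, against 38.8, 76.5, 61.8 and 48.7 CPM in WT. The groups overlapped and no comparison passed the threshold. The estimate was lowest in Rosa26-Lmo2+Sca1-Cre, at -0.91 against WT with an interval of -1.63 to -0.19 (adjusted p = 0.0813), and it passed without replicate 3 of that group (-1.27, adjusted p = 0.0352). In Sca1-Lmo2 the difference from WT was -0.02, with an interval of -0.67 to 0.63 (adjusted p = 0.973).

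Cdkn2d was at 58.7, 62.7, 88.3 and 92.1 CPM in Sca1-Lmo2, against 156, 166, 114 and 97.7 CPM in WT, so that every Sca1-Lmo2 library was below every WT library. It fell there by 0.82 ± 0.25 on the log2 scale, to 0.565 times the WT level (adjusted p = 0.036). The call was near the threshold and ended when any of Sca1-Lmo2 replicates 1, 2 and 3 or WT replicates 1, 2 and 3 was left out (adjusted p from 0.0534 to 0.0989), and with Sca1-Lmo2 replicates 1 and 3 summed (adjusted p = 0.0652). In Rosa26-Lmo2+Mb1-Cre, at 81.3 and 75.7 CPM, both libraries lay below those of WT, and the difference of -0.77 did not pass (adjusted p = 0.0782). With library totals in place of TMM factors this difference was -1.21 and passed (adjusted p = 0.00955). In Rosa26-Lmo2+Sca1-Cre, at 107, 169 and 86.1 CPM, Cdkn2d overlapped WT and differed by -0.15, with an interval of -0.68 to 0.39 (adjusted p = 0.709).

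Cdkn1b, which encodes p27, a brake on CDK2 that is plentiful in resting lymphocytes, was the member lower in every leukaemia model. It was at 46.9, 88.7 and 41.4 CPM in Rosa26-Lmo2+Sca1-Cre, at 63.1, 108, 46.0 and 47.5 CPM in Sca1-Lmo2, at 37.1 and 24.8 CPM in Rosa26-Lmo2+Mb1-Cre and at 71.5 CPM in the 1 Rosa26-Lmo2+Aid-Cre leukaemia, against 136, 137, 163 and 200.4 CPM in WT. No leukaemia library reached the lowest WT library. Cdkn1b fell against WT by 1.43 ± 0.36 (SE) in Rosa26-Lmo2+Sca1-Cre, to 0.371 times the WT level (adjusted p = 0.0154), by 1.27 ± 0.32 in Sca1-Lmo2, to 0.415 times (adjusted p = 0.016), and by 2.36 ± 0.44 in Rosa26-Lmo2+Mb1-Cre, to 0.194 times (adjusted p = 0.00313). These 3 comparisons share their WT libraries. The call in Rosa26-Lmo2+Sca1-Cre ended without its replicate 1 (-1.29, adjusted p = 0.0532), and the call in Sca1-Lmo2 without its replicate 3 (-1.13, adjusted p = 0.0503) or WT replicate 4 (-1.14, adjusted p = 0.0501).

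Cdkn1a, which encodes p21, the CIP/KIP protein induced by p53, was at 3.93, 3.67 and 12.8 CPM in Rosa26-Lmo2+Sca1-Cre, at 6.31, 3.10, 6.88 and 8.18 CPM in Sca1-Lmo2, at 7.39 and 4.05 CPM in Rosa26-Lmo2+Mb1-Cre and at 3.27 CPM in the 1 Rosa26-Lmo2+Aid-Cre leukaemia, against 3.10, 4.98, 3.98 and 2.95 CPM in WT. The highest value was replicate 3 of Rosa26-Lmo2+Sca1-Cre, and every leukaemia group overlapped WT. The differences from WT were 0.86 in Rosa26-Lmo2+Sca1-Cre (interval -0.10 to 1.82, adjusted p = 0.199), 0.70 in Sca1-Lmo2 (interval -0.20 to 1.61, adjusted p = 0.292) and 0.61 in Rosa26-Lmo2+Mb1-Cre (interval -0.47 to 1.69, adjusted p = 0.406). Without replicate 3, Rosa26-Lmo2+Sca1-Cre differed from WT by 0.02 (adjusted p = 0.981).

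Cdkn1c, which encodes p57 and is expressed from the maternal chromosome within an imprinted domain, was high in 3 of 4 Sca1-Lmo2 leukaemias. It was at 18.4, 1.62, 22.2 and 31.7 CPM in Sca1-Lmo2, against 2.3, 3.47, 1.29 and 1.36 CPM in WT, and Sca1-Lmo2 replicate 2 lay within the WT range. The high libraries include Sca1-Lmo2 replicates 1 and 3, which shared their leading T cell receptor segments and may not be independent. It was at 1.33, 1.19 and 0.939 CPM in Rosa26-Lmo2+Sca1-Cre, at 4.38 and 3.27 CPM in Rosa26-Lmo2+Mb1-Cre and at 1.92 CPM in the Rosa26-Lmo2+Aid-Cre library. Cdkn1c rose in Sca1-Lmo2 against WT by 3.13 ± 0.68 (SE), or 8.76-fold (adjusted p = 0.00846), a call that limma-voom did not make (2.61, adjusted p = 0.0771). The differences from WT were -0.87 in Rosa26-Lmo2+Sca1-Cre (interval -2.26 to 0.52, adjusted p = 0.366) and 0.86 in Rosa26-Lmo2+Mb1-Cre (interval -0.62 to 2.34, adjusted p = 0.39). Of 10 tested genes from a list of imprinted genes and their neighbours on the same chromosome, 1 fell against WT in each model and none rose. The listed gene called lower was H19, a non-coding RNA expressed from the maternal chromosome, which belongs to the adjoining Igf2 and H19 domain and not to the domain of Cdkn1c. H19 fell by 3.25 in Rosa26-Lmo2+Sca1-Cre (adjusted p = 0.0159), by 2.79 in Sca1-Lmo2 (adjusted p = 0.0156) and by 3.99 in Rosa26-Lmo2+Mb1-Cre (adjusted p = 0.0121). Slc22a18, a listed gene beside Cdkn1c, was at 1.08, 0, 1.22 and 4.23 CPM in Sca1-Lmo2 replicates 1 to 4, against 0.0757 to 0.290 CPM in WT. It was thus lowest and highest in the same Sca1-Lmo2 replicates as Cdkn1c, and its difference from WT did not pass (3.39, adjusted p = 0.0592).

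**Figure D3:**
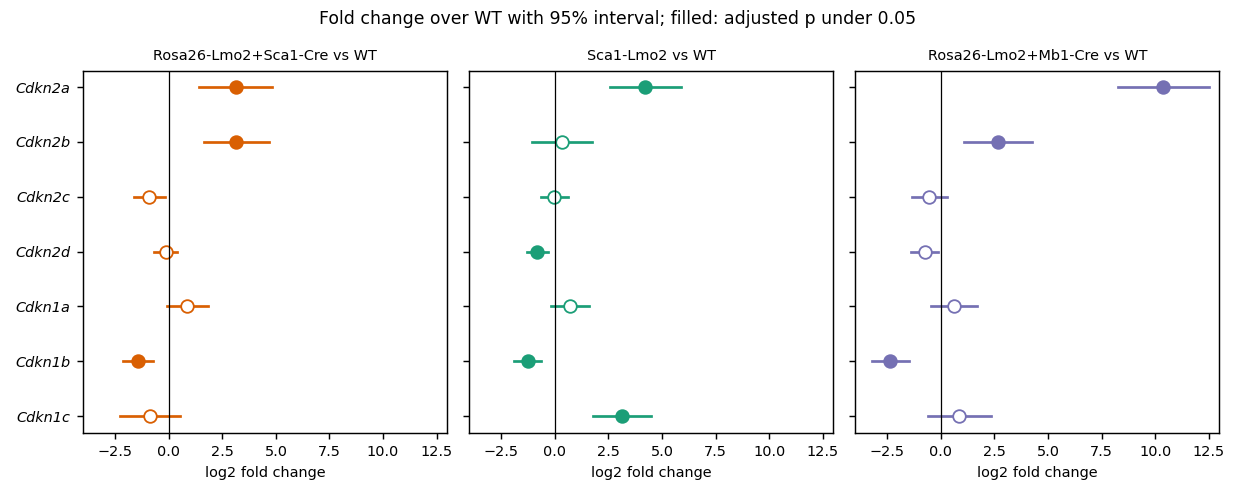
Log2 fold change of the 7 CDK inhibitor genes against WT in 3 panels, 1 a leukaemia model, with bars for the 95% interval and filled points where the adjusted p was under 0.05. Cdkn2a lies to the right of 0 and Cdkn1b to the left, filled, in all 3 panels, while Cdkn2c and Cdkn1a are open in each.

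Counted by comparison, Rosa26-Lmo2+Sca1-Cre against WT had 3 of 7 members called (2 higher, 1 lower), where 26.9% of all genes tested were called, 16.5% higher and 10.4% lower. In Sca1-Lmo2 against WT 4 of 7 were called (2 higher, 2 lower), beside 22.3% of all genes, 12.1% higher and 10.2% lower. In Rosa26-Lmo2+Mb1-Cre against WT 3 of 7 were called (2 higher, 1 lower), beside 35.1% of all genes, 19.7% higher and 15.4% lower. Libraries of both groups did not overlap, against WT, for 2 members in Rosa26-Lmo2+Sca1-Cre (1 higher and 1 lower, beside 17.7% and 19.7% of all genes, 37.4% in all). They did not overlap for 3 members in Sca1-Lmo2 (1 higher and 2 lower, beside 15.7% and 16.9%, 32.6% in all), and for 4 in Rosa26-Lmo2+Mb1-Cre (2 higher and 2 lower, beside 30.9% and 32%, 62.8% in all). The median log2 fold change of the 7 was -0.15, 0.33 and 0.61 in the 3 comparisons in that order, beside 0.06, 0.05 and -0.01 over all genes. As 1 gene moves a share of 7 genes far, these counts are not read as a property of the family.

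The models also differed from each other in 3 members. Cdkn1c was higher in every Sca1-Lmo2 library than in every Rosa26-Lmo2+Sca1-Cre library, by 4.00 ± 0.81 or 16-fold (adjusted p = 0.0156). limma-voom did not make that call (3.38, adjusted p = 0.128), nor did a fit of only these groups (adjusted p = 0.0873). Cdkn2b fell in Sca1-Lmo2 against Rosa26-Lmo2+Sca1-Cre by 2.83 ± 0.76, to 0.141 times (adjusted p = 0.0376), again without overlap. It lost that call with Sca1-Lmo2 replicates 1 and 3 summed (adjusted p = 0.079), with library totals (adjusted p = 0.0595), with only both groups (adjusted p = 0.108) and without Rosa26-Lmo2+Sca1-Cre replicate 2 or 3 (adjusted p = 0.0587 and 0.076) or Sca1-Lmo2 replicate 1 or 3 (adjusted p = 0.107 and 0.067). These were 2 of 7 members called in a comparison where 9.89% of all genes were (3.59% higher, 6.3% lower). Cdkn2a did not differ between these models by the test (1.10, interval -0.46 to 2.66, adjusted p = 0.367), but without Rosa26-Lmo2+Sca1-Cre replicate 1 it was higher in Sca1-Lmo2 by 3.35 (adjusted p = 0.0134).

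Cdkn2a was higher in Rosa26-Lmo2+Mb1-Cre than in both stem cell models, though its mice were also older (20 months, against 9 and 7 to 8), so that age and cell of origin cannot be told apart. Against Sca1-Lmo2 it was higher by 6.15 ± 0.91 or 70.9-fold (adjusted p = 0.0129), and it was the 1 member called, beside 10.5% of all genes (6.04% higher, 4.49% lower). Against Rosa26-Lmo2+Sca1-Cre it was higher by 7.25 ± 1.08 or 152-fold (adjusted p = 0.0489), again the 1 member called, beside 0.211% of all genes (0.123% higher, 0.0878% lower). No library overlapped in either comparison. Without Rosa26-Lmo2+Mb1-Cre replicate 2 both calls ended (5.96, adjusted p = 0.07, and 7.05, adjusted p = 0.14), although the single library left was at 299 CPM. The call against Rosa26-Lmo2+Sca1-Cre also ended with RLE size factors (adjusted p = 0.0512) and with only both groups (7.23, adjusted p = 0.525), and without Rosa26-Lmo2+Sca1-Cre replicate 1 the difference was 9.5 (adjusted p = 0.00251).

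Cdkn1b, which lay lower in Rosa26-Lmo2+Mb1-Cre than in every library of both stem cell models, did not pass against Sca1-Lmo2 (adjusted p = 0.0915) or against Rosa26-Lmo2+Sca1-Cre (-0.93, adjusted p = 0.278). Between the stem cell models its difference was 0.16, with an interval of -0.51 to 0.83 (adjusted p = 0.779). Members without overlap between groups numbered 2 in Sca1-Lmo2 against Rosa26-Lmo2+Sca1-Cre (1 higher and 1 lower, beside 9.66% and 9.9% of all genes, 19.6% in all). They numbered 4 in Rosa26-Lmo2+Mb1-Cre against Rosa26-Lmo2+Sca1-Cre (2 higher and 2 lower, beside 12.6% and 14.7%, 27.3% in all) and 3 in Rosa26-Lmo2+Mb1-Cre against Sca1-Lmo2 (2 higher and 1 lower, beside 19.4% and 19.4%, 38.8% in all). The median over the 7 members was 0.16, -0.25 and -0.10 in these comparisons, beside -0.01, -0.10 and -0.05 over all genes.

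Divided by exon length, the levels of the 7 genes can be set beside each other within a library. In Rosa26-Lmo2+Mb1-Cre Cdkn2a came first, at 255 and 328 CPM per kb of exon, followed by Cdkn2d at 51.6 and 48.1 CPM per kb. In WT thymus Cdkn2d came first, at 84.8 ± 20.9 CPM per kb, followed by Cdkn1b at 35.0 ± 6.6 and Cdkn2c at 21 ± 6.1, while Cdkn1a (1.06 ± 0.26), Cdkn1c (1.03 ± 0.50), Cdkn2a (0.218 ± 0.039) and Cdkn2b (0.149 ± 0.110) were low (SD, n = 4). The ranges of Cdkn1a and Cdkn1c overlapped in WT, as did those of Cdkn2a and Cdkn2b. Of the sum over the 7 genes, Cdkn2a made up 76.9 and 81.6% in Rosa26-Lmo2+Mb1-Cre, 49.8% in the 1 Rosa26-Lmo2+Aid-Cre leukaemia, 2.47 to 6.53% in Sca1-Lmo2 and 0.0779 to 5.47% in Rosa26-Lmo2+Sca1-Cre, against 0.121 to 0.18% in WT. Cdkn2d came first in the 11 other libraries, with 63.0 to 76.1% of the sum in Rosa26-Lmo2+Sca1-Cre and 39.5 to 57% in Sca1-Lmo2, against 49.3 to 67.9% in WT. The order depended on the length used, as reads appeared to be counted over whole spans and that of Cdkn2a is mostly intron. Per kb of span, Cdkn2a was at 14.8 and 19.05 CPM in Rosa26-Lmo2+Mb1-Cre and Cdkn2d at 29.6 and 27.6 CPM there, and Cdkn2d came first in 13 libraries, with Cdkn1b first in WT replicate 4.

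The sum over the 7 genes was 332 and 402 CPM per kb in Rosa26-Lmo2+Mb1-Cre and 192 in the 1 Rosa26-Lmo2+Aid-Cre leukaemia, against 126 to 168 in WT. In the stem cell models it was lower than in WT in all but 1 library, at 91.6, 141 and 86.8 CPM per kb in Rosa26-Lmo2+Sca1-Cre and 85.5, 101, 98.5 and 108 in Sca1-Lmo2. Cdkn1b held 10.5 to 13.8% of the sum in Rosa26-Lmo2+Sca1-Cre, 9.64 to 23.5% in Sca1-Lmo2 and 1.36 and 2.45% in Rosa26-Lmo2+Mb1-Cre, against 17.9 to 35.0% in WT, so that Sca1-Lmo2 overlapped WT. Meanwhile Cdkn1c held up to 14.3% in Sca1-Lmo2 and at most 1.02% in WT. No test was run on the sums.

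**Figure D4:**
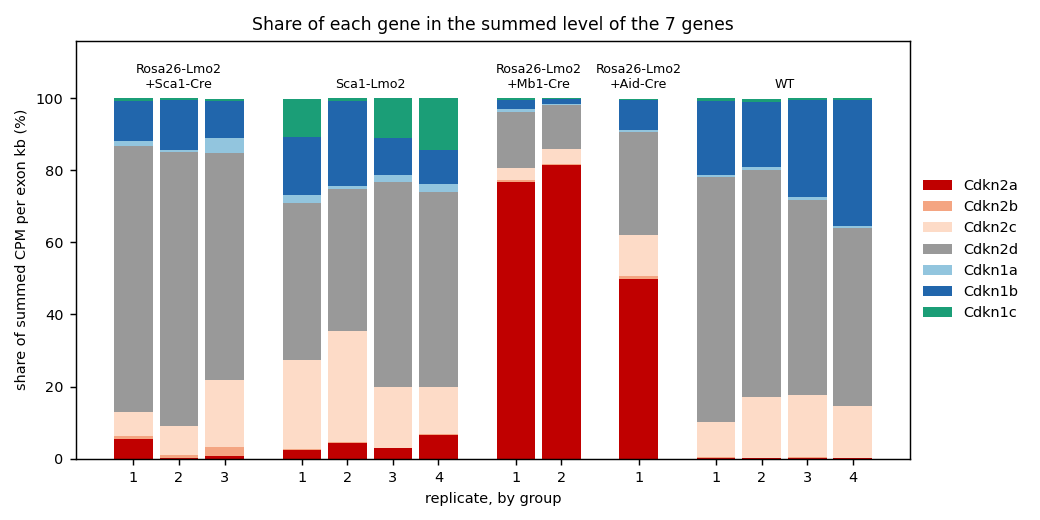
Share of each CDK inhibitor gene in the summed CPM per kb of exon of the 7 genes, as 1 stacked bar a library, with the leukaemia groups left of WT. Cdkn2a fills 76.9 and 81.6% of the Rosa26-Lmo2+Mb1-Cre bars and 49.8% of the Rosa26-Lmo2+Aid-Cre bar, and Cdkn2d is the largest part of the others.

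Genes beside the members were looked at for shared movement. Mtap, the nearest tested gene to Cdkn2a on the side away from Cdkn2b and 93390 bases off, encodes a methionine salvage enzyme. It was at 51.5 and 70.3 CPM in Rosa26-Lmo2+Mb1-Cre, at 59.9 CPM in the Rosa26-Lmo2+Aid-Cre library and at 54.8, 64.3, 52.0 and 20.0 CPM in Sca1-Lmo2, against 17.2, 19.8, 25.0 and 20.6 CPM in WT. It rose against WT by 1.56 in Rosa26-Lmo2+Mb1-Cre (adjusted p = 0.00868) and by 1.21 in Sca1-Lmo2 (adjusted p = 0.0189), where replicate 4 lay among the WT libraries. In Rosa26-Lmo2+Sca1-Cre it was at 32.7, 33.3 and 54.1 CPM, above WT in every library, and did not pass (0.96, adjusted p = 0.0523). In Sca1-Lmo2 replicate 4 the order of both genes parted, since Cdkn2a was highest of its group there and Mtap lowest. No library lacked reads on Cdkn2a, Cdkn2b or Mtap, and the lowest count of a member anywhere was 2, for Cdkn2b in WT replicate 4. Background on gene spans came to 56.2% of the 4 Cdkn2a counts in Rosa26-Lmo2+Sca1-Cre replicate 2 and 42.9% of the 38 in replicate 3. In bulk tissue such reads do not settle whether the leukaemia cells kept the locus, which was not tested. The study reported copy number loss of Cdkn2a/b in some Sca1-Lmo2 leukaemias by array. Of the genes next to the other members, Faf1 beside Cdkn2c rose in Rosa26-Lmo2+Mb1-Cre (1.21, adjusted p = 0.0123), and Rab44 beside Cdkn1a rose in Rosa26-Lmo2+Sca1-Cre (1.62, adjusted p = 0.0136) and Rosa26-Lmo2+Mb1-Cre (1.21, adjusted p = 0.0432), each against WT. Slc22a18 beside Cdkn1c differed by 3.39 in Sca1-Lmo2 and did not pass (adjusted p = 0.0592).

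**Figure D5:**
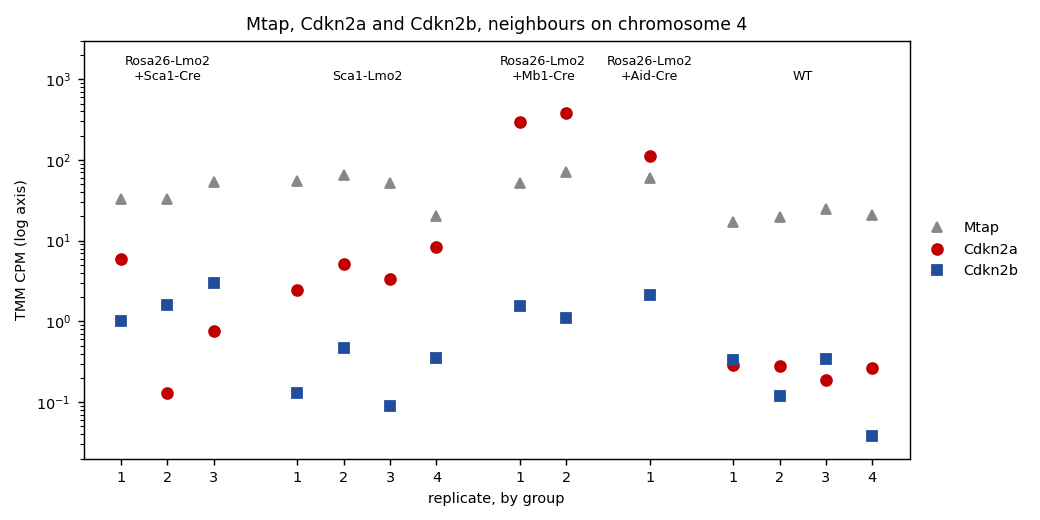
CPM of Mtap, Cdkn2a and Cdkn2b, which lie next to each other on chromosome 4, in each library on a log axis. Mtap spans 17.2 to 70.3 CPM over all libraries, whereas Cdkn2a spans 0.129 to 384 CPM.

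The partners of the inhibitors were read from lists that, like the members, were chosen with earlier results of these data known. Among 5 kinases and cyclins that INK4 proteins oppose, 2 rose in Rosa26-Lmo2+Sca1-Cre, 2 rose in Sca1-Lmo2, and 1 rose and 1 fell in Rosa26-Lmo2+Mb1-Cre, each against WT. Their median log2 fold change was 0.89, 0.61 and -0.18 in that order, and 26.9%, 22.3% and 35.1% of all genes tested were called there. Cdk4, the kinase INK4 proteins bind, averaged 297 CPM in Rosa26-Lmo2+Sca1-Cre, 399 CPM in Sca1-Lmo2 and 320 CPM in Rosa26-Lmo2+Mb1-Cre, against 139.7 CPM in WT. It rose by 1.09 (adjusted p = 0.0199), 1.51 (adjusted p = 0.00407) and 1.19 (adjusted p = 0.0149) in that order. Ccnd2, cyclin D2, fell by 6.02 in Rosa26-Lmo2+Mb1-Cre, to 0.743 CPM against 48.1 CPM in WT (adjusted p = 0.016), and Ccnd1, cyclin D1, rose in Sca1-Lmo2 by 2.94 (adjusted p = 0.0265) with overlap between groups. Of 6 partners of CIP/KIP proteins, Cdk2 was the 1 gene called in these 3 comparisons, and it fell in Rosa26-Lmo2+Sca1-Cre by 1.03 (adjusted p = 0.00639). With library totals Cdk4 missed the threshold in Rosa26-Lmo2+Sca1-Cre (adjusted p = 0.0595) and Rosa26-Lmo2+Mb1-Cre (adjusted p = 0.0531). The kinase Cdk6, also called higher in Rosa26-Lmo2+Sca1-Cre, missed it there as well (adjusted p = 0.22).

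Downstream, 4 of 13 genes of the RB and E2F families fell in Rosa26-Lmo2+Sca1-Cre, 3 rose and 3 fell in Sca1-Lmo2, and 1 fell in Rosa26-Lmo2+Mb1-Cre, with medians of -0.96, 0 and -0.60 on the log2 scale. The share of all genes called against WT was 26.9%, 22.3% and 35.1% in that order. Rb1 fell in Rosa26-Lmo2+Sca1-Cre by 1.40 (adjusted p = 0.00254), and Rbl2, an RB relative, fell in Rosa26-Lmo2+Mb1-Cre by 1.98 (adjusted p = 0.00986). In Sca1-Lmo2 E2f3 rose by 1.20 (adjusted p = 0.00728), as did E2f1 (1.17) and E2f6 (0.77), while Rb1 (-0.68), E2f2 (-1.92) and E2f7 (-2.24) fell. With library totals E2f6 lost its call there (adjusted p = 0.15). Of 12 proliferation markers, 0 were called in Rosa26-Lmo2+Sca1-Cre by edgeR (2 at an unadjusted p under 0.05, 2 by DESeq2 and 0 by limma-voom), 2 rose in Sca1-Lmo2 (Mcm2 by 1.14, adjusted p = 0.00664, and Mcm5 by 1.12, adjusted p = 0.0109) and 3 rose in Rosa26-Lmo2+Mb1-Cre, among them Tyms by 1.65 (adjusted p = 0.0067). With library totals Mcm5 (adjusted p = 0.295) and Cdc20 (adjusted p = 0.176) lost their calls in Rosa26-Lmo2+Mb1-Cre, and Tyms kept its call (adjusted p = 0.0141).

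Of 9 genes that turn over CIP/KIP proteins, 0 were called in Rosa26-Lmo2+Sca1-Cre by edgeR (2 at an unadjusted p under 0.05, 2 by DESeq2 and 0 by limma-voom), 3 rose in Sca1-Lmo2 and 5 rose in Rosa26-Lmo2+Mb1-Cre. The median log2 fold change of the list was 0.26, 0.41 and 1.05 in that order, beside 0.06, 0.05 and -0.01 over all genes, of which 26.9%, 22.3% and 35.1% were called. With library totals, Rbx1 (adjusted p = 0.0511), Dtl (adjusted p = 0.193) and Cdc20 (adjusted p = 0.176) lost their calls in Rosa26-Lmo2+Mb1-Cre, which left 2, and Cul1 (adjusted p = 0.253) lost its call in Sca1-Lmo2, which left 2. Cks1b, the cofactor with which the ubiquitin ligase SCF recognises p27, averaged 133 CPM in Rosa26-Lmo2+Mb1-Cre and 92.3 CPM in Sca1-Lmo2, against 43.7 CPM in WT, and rose by 1.60 (adjusted p = 0.00191) and 1.08 (adjusted p = 0.00712). In Rosa26-Lmo2+Sca1-Cre, where Cdkn1b fell too, Cks1b differed by 0.62 and did not pass (adjusted p = 0.0691). The list of 9 FOXO, TGF-beta and MIZ1 genes had 2 that fell in Rosa26-Lmo2+Sca1-Cre, 1 that rose and 1 that fell in Sca1-Lmo2, and 6 that fell in Rosa26-Lmo2+Mb1-Cre, with medians of -0.45, -0.17 and -1.10. Smad4, the shared SMAD of TGF-beta signalling to Cdkn2b, fell in Rosa26-Lmo2+Mb1-Cre by 1.99 (adjusted p = 0.00147), in Rosa26-Lmo2+Sca1-Cre by 0.91 (adjusted p = 0.0186) and in Sca1-Lmo2 by 0.68 (adjusted p = 0.0429).

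Known regulators of the Cdkn2a and Cdkn2b locus were counted beside the share of all genes called against WT, which was 26.9% in Rosa26-Lmo2+Sca1-Cre, 22.3% in the Sca1-Lmo2 model and 35.1% in Rosa26-Lmo2+Mb1-Cre. Of 13 Polycomb and other repressors, 1 rose and 2 fell in Rosa26-Lmo2+Sca1-Cre, 1 rose and 1 fell in Sca1-Lmo2, and 3 rose and 4 fell in Rosa26-Lmo2+Mb1-Cre, so that in both stem cell models the share called was not above that of all genes. Cbx8, a Polycomb subunit, fell in each by 0.72 (adjusted p = 0.0319), 0.79 (adjusted p = 0.0163) and 1.20 (adjusted p = 0.0058), while Bmi1, another subunit, rose in Sca1-Lmo2 by 1.03 (adjusted p = 0.00788) and in Rosa26-Lmo2+Mb1-Cre by 0.97 (adjusted p = 0.015). With library totals Bmi1 (adjusted p = 0.194) and Jarid2 (adjusted p = 0.182) missed the threshold in Rosa26-Lmo2+Mb1-Cre, and 1 of the 3 that rose was left. Of 6 activators, 3 fell in each model and 1 rose in Sca1-Lmo2 and in Rosa26-Lmo2+Mb1-Cre. Dmtf1, which activates ARF, fell by 1.31 in Rosa26-Lmo2+Sca1-Cre (adjusted p = 0.00792), by 0.81 in Sca1-Lmo2 (adjusted p = 0.0281) and by 1.62 in Rosa26-Lmo2+Mb1-Cre (adjusted p = 0.00347). Kdm6b, a demethylase that opposes Polycomb, fell by 1.13 (adjusted p = 0.0106), 0.94 (adjusted p = 0.0128) and 1.88 (adjusted p = 0.00177) in that order. The activator that rose was Myc, by 2.19 in Sca1-Lmo2 (adjusted p = 0.00416) and by 1.60 in Rosa26-Lmo2+Mb1-Cre (adjusted p = 0.0192).

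On the arm from ARF to p53, Mdm4, a p53 inhibitor, fell by 1.21 in Rosa26-Lmo2+Sca1-Cre (adjusted p = 0.00879), by 0.94 in Sca1-Lmo2 (adjusted p = 0.0126) and by 1.51 in Rosa26-Lmo2+Mb1-Cre (adjusted p = 0.00379). Mdm2, the target of ARF, fell by 0.77 (adjusted p = 0.0197), 0.60 (adjusted p = 0.0387) and 0.85 (adjusted p = 0.0169) in that order, and with library totals it missed the threshold in Sca1-Lmo2 (adjusted p = 0.083). Trp53 rose in Sca1-Lmo2 by 0.68 (adjusted p = 0.0314), a call lost with library totals (adjusted p = 0.156), and Npm1, which binds ARF in the nucleolus, rose in Rosa26-Lmo2+Mb1-Cre by 2.18 (adjusted p = 0.00514). Beside the shares of all genes called that are given above, of 13 p53 target genes 1 rose and 3 fell in Rosa26-Lmo2+Sca1-Cre and in Sca1-Lmo2, and 2 rose and 4 fell in Rosa26-Lmo2+Mb1-Cre. Phlda3 rose there by 2.33 (adjusted p = 0.00681), and Btg2 fell by 2.18 (adjusted p = 0.00688). Cdkn1a, itself a p53 target, passed the threshold in none of these comparisons.

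The members did not follow one another closely. On log2 CPM over the 14 libraries, which share group, age and depth, the strongest pair was Cdkn2a with Cdkn1b (r = -0.70), and both genes of the chromosome 4 locus, Cdkn2a and Cdkn2b, had r = 0.43. By Pearson correlation, the pattern most like Cdkn1b was that of Pik3ca (r = 0.977), followed by Pcmtd2 (0.969) and Plekhg2 (0.967), and that most like Cdkn2d was Pagr1a (0.936). Cdkn1c was followed most closely by B4galnt4 (0.966) and Syde1 (0.948), Cdkn2c by Prc1 (0.905), a spindle protein, and Cdkn2a by Oit3 (0.907) and Nudt5 (0.907). The best match of Cdkn1a was Fam69b (0.873). By Spearman correlation the closest genes were others, such as Rfx3 for Cdkn1b (0.974), Kank3 for Cdkn2a (0.93), Dach2 for Cdkn2b (0.925) and Slc9a5 for Cdkn1c (0.855). These are the highest values over all genes searched and are given as a description.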

How the data were processed

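RNA of 14 thymus samples was sequenced as paired ends from non-stranded libraries. The labels name frozen thymus and the methods speak of blast cells, which was not resolved here. The authors converted base calls with bcl2fastq, aligned with TopHat2 2.1.0 to mm10/GRCm38 and deposited raw counts per gene, which appeared to cover whole spans. Of 46948 lines 46946 were kept, and 46451 identifiers (98.95%) matched GENCODE M21, from which strands and exon lengths came. Gene symbols were those given with the deposited counts.

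From these counts, TMM-scaled CPM and the two-sided quasi-likelihood F test were computed with edgeR 4.0.16 in R 4.3.3, with all 5 groups in 1 fit, genes at 1 CPM or more in at least 3 libraries, and Benjamini-Hochberg adjustment over 17087 genes. SE is the log2 fold change divided by the square root of F, and 95% intervals are 1.96 SE on either side. These intervals are narrower than the F test implies. For Cdkn1c in Rosa26-Lmo2+Mb1-Cre against Rosa26-Lmo2+Sca1-Cre, the interval of 0.13 to 3.33 was wholly positive, with an unadjusted p of 0.0549 in that test. The 14 libraries carry separate labels and were taken as animals, so p-values measure the spread between them. The Rosa26-Lmo2+Aid-Cre library entered the fit but no test. Reads carry no molecular identifiers. Alternatives were RLE factors, library totals, no filter, DESeq2 1.42.0 (the test of the study), limma-voom (limma 3.58.1), only both groups, a replicate block, each replicate left out, and Sca1-Lmo2 replicates 1 and 3 summed.

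Without TMM factors the median log2 fold change of all genes against WT moved from 0.06 to -0.33 in Rosa26-Lmo2+Sca1-Cre, from 0.05 to -0.14 in Sca1-Lmo2 and from -0.01 to -0.46 in Rosa26-Lmo2+Mb1-Cre, and the share of calls that were higher moved from 61.5 to 35.8%, from 54.3 to 44.1% and from 56.0 to 34.0%. Among the models it moved from 36.3 to 50.7% (Sca1-Lmo2 against Rosa26-Lmo2+Sca1-Cre), from 58.3 to 83.3% (Rosa26-Lmo2+Mb1-Cre against Rosa26-Lmo2+Sca1-Cre) and from 57.3 to 45.5% (Rosa26-Lmo2+Mb1-Cre against Sca1-Lmo2).

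Members and lists were chosen with earlier results of these data known. Named genes are the members, the 2 called genes of each list with the smallest adjusted p in a comparison, the nearest tested neighbours, and the 3 genes with the highest Pearson correlation of log2(CPM + 0.5), and some were left out for length. Col3a1, Col1a2 and Pecam1 were named after their values were seen. The test was run on simulated counts before use.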

Additional observations from a re-analysis of the deposited data

Results flagged for a closer look

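A test of the difference between models set apart 4 values. Cdkn2b was lower in Sca1-Lmo2 than in Rosa26-Lmo2+Sca1-Cre by a log2 difference of -2.83, and Cdkn1c was higher there by 4.00. Cdkn2a was higher in Rosa26-Lmo2+Mb1-Cre by 7.25 against Rosa26-Lmo2+Sca1-Cre and by 6.15 against Sca1-Lmo2. The Rosa26-Lmo2+Aid-Cre library, which took part in no test, had 112 CPM of Cdkn2a and 2.11 CPM of Cdkn2b, both above every WT library.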

How the results depend on the processing

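Of 14 called fold changes of members, 3 kept their call in every alternative that gave them an adjusted p (Cdkn2a in Sca1-Lmo2, and Cdkn2a and Cdkn1b in Rosa26-Lmo2+Mb1-Cre, each against WT). Over 196 refits of the 14, 153 kept the call, 43 lost it and 0 turned direction, while of 386 refits of the 28 uncalled differences 9 became calls and 25 changed sign. DESeq2 gave no adjusted p for Cdkn2a, so the calls of Cdkn2a were not checked with DESeq2, and member counts with DESeq2 are not given. Precision is limited by 2 to 4 libraries a group, and by few reads for Cdkn2b and for Cdkn2a in WT.

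The number of members called in Sca1-Lmo2 against Rosa26-Lmo2+Sca1-Cre was 1 with library totals, limma-voom or replicates 1 and 3 summed and 0 with only both groups, and in Rosa26-Lmo2+Mb1-Cre against Rosa26-Lmo2+Sca1-Cre it was 0 with RLE factors or only both groups. Leaving out 1 replicate at a time gave 1 to 4 called members in Rosa26-Lmo2+Sca1-Cre, 2 to 4 in Sca1-Lmo2 and 2 to 3 in Rosa26-Lmo2+Mb1-Cre against WT, 1 to 3 in Sca1-Lmo2 and 0 to 1 in Rosa26-Lmo2+Mb1-Cre against Rosa26-Lmo2+Sca1-Cre, and 0 to 2 in Rosa26-Lmo2+Mb1-Cre against Sca1-Lmo2.

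Replicate numbers did not pair the samples, since same-numbered libraries correlated by 0.127, 0.178 and 0.089 in their deviations between Rosa26-Lmo2+Sca1-Cre and WT and negatively between Sca1-Lmo2 and WT (-0.447 to -0.117). With the replicate block, members called numbered 1 in Rosa26-Lmo2+Sca1-Cre against WT and 0 in each comparison between models, and all genes called numbered 1367, 2527 and 3188 against WT (4589, 3815 and 6001 without it) and 8, 0 and 2 between models (1690, 36 and 1800 without it).

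Signs of uncalled differences turned for Cdkn2d in Rosa26-Lmo2+Mb1-Cre against Sca1-Lmo2 (-0.20 with library totals, -0.06 without a filter, -0.04 with the block), Cdkn2c in Sca1-Lmo2 against WT (0.02 without a filter, 0.01 summed) and Cdkn1a in Rosa26-Lmo2+Mb1-Cre with the block (0.16 against Rosa26-Lmo2+Sca1-Cre, 0.21 against Sca1-Lmo2). Left-out replicates gave ranges across 0 for Cdkn2d in Rosa26-Lmo2+Sca1-Cre against WT (-0.47 to 0.05), for Cdkn2b (-0.11 to 0.68) and Cdkn2c (-0.28 to 0.16) in Sca1-Lmo2 against WT, for Cdkn1a (-0.45 to 0.69) and Cdkn1b (-0.18 to 0.58) in Sca1-Lmo2 against Rosa26-Lmo2+Sca1-Cre, for Cdkn2b (-0.78 to 0.04) and Cdkn1a (-0.75 to 0.59) in Rosa26-Lmo2+Mb1-Cre against Rosa26-Lmo2+Sca1-Cre, and for Cdkn2d (-0.05 to 0.16) and Cdkn1a (-0.60 to 0.27) in Rosa26-Lmo2+Mb1-Cre against Sca1-Lmo2. The cause was not tested. Where a replicate of Rosa26-Lmo2+Mb1-Cre is left out, the library that remains is assumed to vary like the other groups.

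All genes called against WT ranged over 1970 to 5019 in Rosa26-Lmo2+Sca1-Cre, 2230 to 3855 in Sca1-Lmo2 (2541 summed) and 1607 to 5464 in Rosa26-Lmo2+Mb1-Cre with replicates left out. Between models, Sca1-Lmo2 against Rosa26-Lmo2+Sca1-Cre gave 3603 with DESeq2, 1070 with limma-voom, 3902 without a filter, 0 with only both groups, 709 summed and 336 to 2161 with replicates left out. Rosa26-Lmo2+Mb1-Cre gave 12 with library totals, 0 with RLE factors or only both groups, 1333 with DESeq2, 1 with limma-voom, 159 without a filter and 1 to 239 with replicates left out against Rosa26-Lmo2+Sca1-Cre. Against Sca1-Lmo2 it gave 943 with library totals, 3981 with DESeq2, 866 with limma-voom, 5 with only both groups, 965 summed and 17 to 1856 with replicates left out.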
